A study of Canis lupus familiaris with 6 samples.

Results

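Planar cell polarity is the alignment of cells within the plane of an epithelial sheet, and 10 of its genes were followed here in dog kidney epithelial cells that had lost E-cadherin. The genes were taken by symbol: the flamingo cadherins CELSR1, CELSR2 and CELSR3, the core genes VANGL1, VANGL2, PRICKLE1, FZD3 and FZD6, the receptor-like PTK7 and the giant cadherin FAT1. All 10 were among the 12851 genes of the deposited table, each symbol stood on a single row, and all 10 passed the filter on low values that left 12349 genes to test. The study compared MDCK type II cells in which E-cadherin was knocked out (KO, 3 libraries) with unmodified MDCK type II cells (WT, 3 libraries), both grown in DMEM with serum and with no other treatment named. MDCK is a long-established canine kidney line that forms polarized sheets. The labels do not give the number of KO clones or whether libraries came from separate cultures, so the p-values reflect the variation among these 6 libraries alone, and that variation may be technical. They give the density of the cultures both as confluent and as 70 to 80% confluency.

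In the core pathway, asymmetric complexes meet across each cell boundary. Flamingo cadherins on neighbouring cells bind each other and bridge the boundary, Frizzled receptors with Dishevelled gather on one face, and Van Gogh-like proteins with Prickle gather on the opposite face. The flamingo proteins are cadherins by their extracellular repeats but carry a seven-pass membrane domain and are not linked to catenins as E-cadherin is. In the kidney, planar polarity is known for its part in the oriented growth of tubules.

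Values are the authors' normalized counts per library, or the mean ± SD of a group (n = 3 libraries each), and no level is compared between genes, since transcript lengths were not used here. Log2 fold changes are KO over WT on log2(value + 1), and a gene is called at an adjusted p of 0.05 from limma with Benjamini-Hochberg adjustment over all tested genes. Library totals were 18281549 to 18681821 normalized counts in KO and 19002399 to 19386796 in WT. CDH1, the gene of E-cadherin, had 1115, 1120 and 1237 normalized counts in the KO libraries, against 38542, 39643 and 39370 in the WT libraries, a KO mean of 2.95% of the WT mean. Of 10 kidney epithelial markers 8 were in the table and tested, and 2 were called higher and 3 lower, CDH1 among the lower. CLDN2 averaged 253 ± 25.7 in KO and 941 ± 42.4 in WT and TJP1 was also called lower, CDH16 averaged 147 ± 18.9 in KO and 36.8 ± 4.26 in WT and PAX8 was also called higher, and EPCAM, KRT18 and PAX2 did not pass. None of 6 endothelial markers was in the table, and of 10 fibroblast markers PDGFRA was the only one present, at 28.7 to 40.4 in KO and 17.7 to 20.6 in WT. Of 6 immune markers 2 were present, CD14 at 46.8 to 49.8 in KO and 17.7 to 22.8 in WT, and CD79A at 13507 to 14608 in KO and 12390 to 14011 in WT. CD79A is a B cell gene, and whether the reads on its row belong to it was not tested. The part of other cell types in the results was not tested. In bulk RNA, fewer expressing cells and less transcript per cell cannot be told apart.

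Of the 10 genes, 6 were called higher in KO, 1 was called lower and 3 did not pass. Over all tested genes 48.1% were called, 23.6% higher and 24.5% lower. The authors' deposited table calls the same 6 genes higher and the same 1 lower, against 21.9% of tested genes higher and 23.1% lower. With libraries rescaled to equal totals, the higher share of all calls was 60.1%, against 49.1% as deposited, and the 10 genes still split 6 higher and 1 lower. The median log2 fold change of the 10 genes was 0.39, while that of all tested genes was -0.01. KO and WT values did not overlap for 7 of the 10 genes, where 56.4% of all tested genes were separated in this way. The 6 higher genes were the 3 flamingo cadherins, PRICKLE1, PTK7 and VANGL1, the lower gene was VANGL2, and FZD3, FZD6 and FAT1 did not pass.

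**Figure D1:**
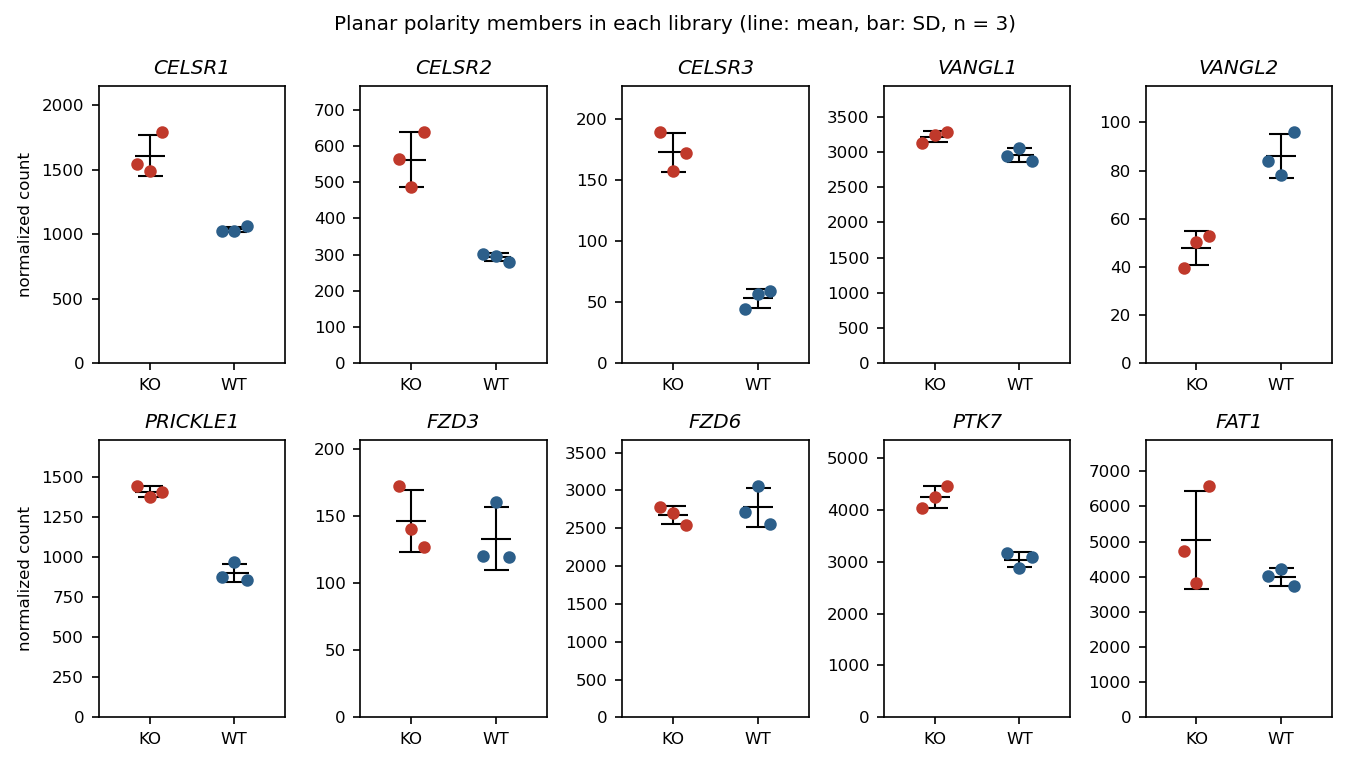
Normalized counts (vertical axes, from 0) of the 10 planar polarity genes in each KO library (red, left) and each WT library (blue, right), with the group mean as a line and the SD as a bar (n = 3). The 3 CELSR genes, PRICKLE1, PTK7 and, by a narrow margin, VANGL1 lie wholly higher in KO and VANGL2 wholly lower. The FZD3, FZD6 and FAT1 values overlap.

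All 3 flamingo cadherins rose. CELSR1, the family member best known for planar polarity of epithelia in the mouse, had 1547, 1491 and 1792 normalized counts in the KO libraries, against 1024, 1028 and 1064 in the WT libraries. The lowest KO library was above the highest WT library, and the rise was 1.55-fold (log2 fold change 0.63, SE 0.0676, adjusted p = 4.24e-06). CELSR2, which in the mouse acts with CELSR3 in brain wiring and in the cilia of ependymal cells, had 563, 487 and 638 normalized counts in KO, against 303, 297 and 280 in WT. Every KO value was again above every WT value, with a mean 1.92-fold higher (log2 fold change 0.93, SE 0.0958, adjusted p = 2.77e-06). CELSR3, known from axon guidance in the mouse forebrain, had 189, 157 and 172 normalized counts in KO, against 44.6, 56.7 and 58.9 in WT. This was the largest change of the 10 genes as fitted, 3.24-fold (log2 fold change 1.68, SE 0.146, adjusted p = 5.28e-07), and it was seen in 3 of 3 KO libraries.

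The ratios between the flamingo genes were also set side by side, in a design too small for a test at 0.05. The log2 ratio of CELSR3 to CELSR1 averaged -3.21 ± 0.18 in KO and -4.27 ± 0.20 in WT (SD, n = 3 each), a difference of 1.06, or 2.08-fold. This pair was chosen after its values were seen. The log2 ratio of CELSR2 to CELSR1 averaged -1.52 ± 0.08 in KO and -1.82 ± 0.09 in WT, a difference of 0.30. In both ratios the groups did not overlap, and the two-sided exact permutation p was 0.10, the smallest that 3 libraries against 3 allow (0.12 adjusted over the 5 ratios computed). Scaling between libraries cancels in such a ratio.

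The Van Gogh-like genes encode four-pass membrane proteins that bind Prickle, and the pair moved in opposite directions. VANGL2, the gene mutated in the mouse strain Looptail, had 39.7, 50.5 and 52.9 normalized counts in KO, against 83.8, 78.3 and 95.9 in WT. All KO values lay below all WT values, and VANGL2 averaged 55.5% of its WT level in KO (log2 fold change -0.84, SE 0.168, adjusted p = 0.000946). VANGL1 had 3126, 3235 and 3279 normalized counts in KO, against 2937, 3060 and 2869 in WT. The groups were separated by a narrow margin, and VANGL1 was called at 1.09-fold higher (log2 fold change 0.12, SE 0.0460, adjusted p = 0.0443). That call was lost in 7 of 15 alternative analyses: without trend and robust options in limma, with a replicate block, and without WT replicate 1, WT replicate 3 or any single KO library (adjusted p of 0.0502 to 0.136). The log2 ratio of VANGL2 to VANGL1 averaged -6.05 ± 0.18 in KO and -5.09 ± 0.19 in WT, a difference of -0.96 with no overlap (two-sided exact permutation p = 0.10, adjusted p = 0.12 over 5 ratios).

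PRICKLE1, the cytoplasmic partner of the Van Gogh-like proteins, rose. It had 1440, 1374 and 1406 normalized counts in KO, against 876, 966 and 858 in WT. The KO libraries lay close together and above every WT library, with a mean 1.56-fold higher (log2 fold change 0.65, SE 0.0601, adjusted p = 1.03e-06). PTK7, a transmembrane protein with an inactive kinase domain that is needed for planar polarity in the mouse, had 4035, 4244 and 4451 normalized counts in KO, against 3159, 2870 and 3092 in WT. It rose 1.40-fold, with all 3 KO values above all 3 WT values (log2 fold change 0.48, SE 0.0523, adjusted p = 4.65e-06).

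Neither FZD6 nor FZD3, the Frizzled receptors among the genes followed, passed. The other Frizzled receptors are given below. FZD6, which orients hair follicles in the mouse, had 2778, 2702 and 2540 normalized counts in KO, against 2714, 3055 and 2559 in WT. The groups overlapped, and the 95% interval of the KO over WT ratio ran from 0.877 to 1.06 (adjusted p = 0.533). The fitted log2 fold change of -0.05 changed sign with libraries rescaled to equal totals (0.01) and without WT replicate 2 (0.02). FZD3, a close relative that guides axons, had 172, 140 and 127 normalized counts in KO, against 120, 160 and 119 in WT. Its values also overlapped, with a wider interval of 0.879 to 1.37 (adjusted p = 0.482). The log2 ratio of FZD6 to FZD3 averaged 4.19 ± 0.16 in KO and 4.38 ± 0.12 in WT (two-sided exact permutation p = 0.30, adjusted p = 0.30 over 5 ratios).

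FAT1, a giant cadherin related to the Drosophila planar polarity gene fat, varied most among the KO libraries. It had 4726, 3837 and 6575 normalized counts in KO, against 4010, 4223 and 3724 in WT. KO replicate 2 lay among the WT values while KO replicate 3 was well above them, and the interval of the ratio ran from 0.815 to 1.88 (log2 fold change 0.31, adjusted p = 0.332). FAT1 was called without KO replicate 2 (log2 fold change 0.49, adjusted p = 0.0309) and in none of the other 14 alternatives. The SD of its log2 values within KO, 0.392, was larger than that of 99.8% of the 4350 tested genes with a mean of at least 1000, while the SD within WT, 0.0913, was larger than that of 72.7%.

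KO replicate 3 also carried the highest values of CELSR1 and CELSR2, and KO replicate 2 the lowest. KO replicate 3 stood at 1.54 times the mean of the other KO libraries for FAT1, 1.22 times for CELSR2 and 1.18 times for CELSR1. The median of this ratio over genes with a mean of at least 1000 was 1.01, and 99.9% of those genes had a smaller ratio than FAT1 and 98.3% a smaller one than CELSR1. VANGL2 stood at 1.17, PTK7 at 1.08 and VANGL1 at 1.03, each with KO replicate 1 lowest. A ratio above 1 was not shared by all: PRICKLE1 stood at 0.999, CELSR3 at 0.993, FZD6 at 0.927 and FZD3 at 0.815. In all, 6 of the 10 genes were highest in KO replicate 3, against 38.9% of all tested genes. Without KO replicate 3 the flamingo rises stayed called, with log2 fold changes of 0.55 for CELSR1, 0.83 for CELSR2 and 1.69 for CELSR3.

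**Figure D2:**
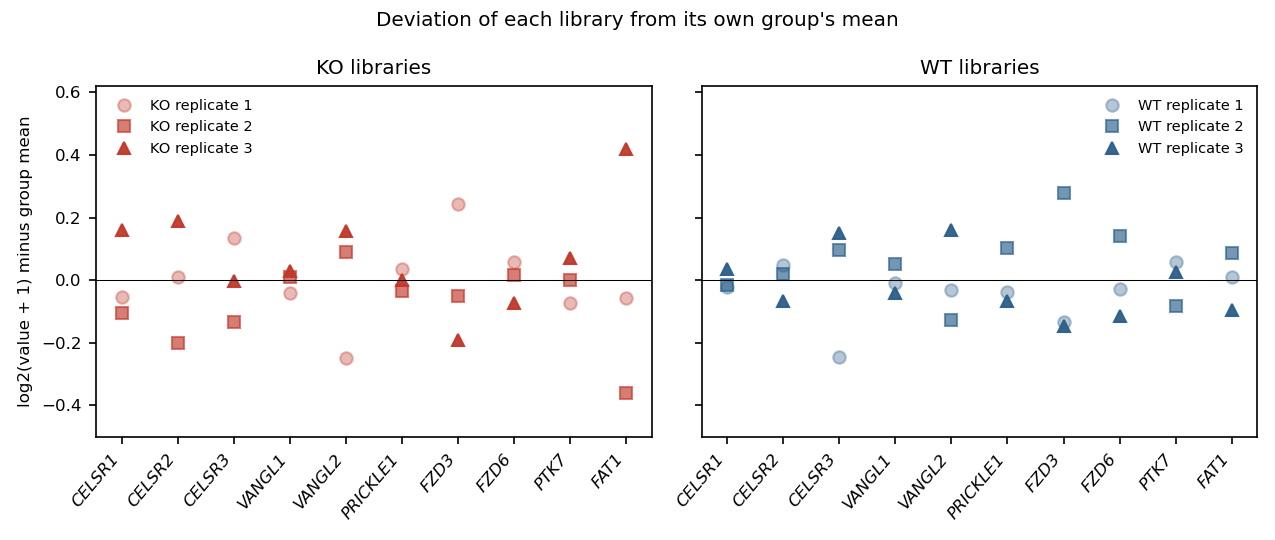
Difference between log2(value + 1) in each library and the mean of its own group (vertical axis) for the 10 genes, in KO libraries (left) and WT libraries (right). FAT1 spreads most within KO (SD 0.392), with KO replicate 3 highest and KO replicate 2 lowest, the order also seen for CELSR1 and CELSR2.

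The 10 genes were then set beside their neighbours in gene order, taking 10 tested genes on each side. CELSR3 was above all 20 of its neighbours, whose median log2 fold change was -0.03, and NCKIPSD and UQCRC1 beside it had log2 fold changes of 0.47 and 0.13. CELSR1 was above 19 of 20 neighbours (median 0.01), CELSR2 above 18 of 20 (median -0.19), PRICKLE1 above 18 of 20 (median -0.09) and PTK7 above 19 of 20 (median 0.04). Such ranks were not particular to the clear rises. VANGL1, at a log2 fold change of 0.12, was above 19 of 20 (median -0.15). FAT1, which was not called, was above 18 of 20 (median -0.19). VANGL2 was below all 20 of its neighbours, whose median was 0.18 and of which 8 were called higher and 2 lower. FZD3 was above 11 of its 20 neighbours and FZD6 above 13 of 20. Of the 10 genes, only CELSR3 and VANGL2 lay outside the range of their neighbours. None of the 10 genes lies in the run from SMOX to UBE2V1, in which 157 of 160 tested genes were called higher.

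**Figure D3:**
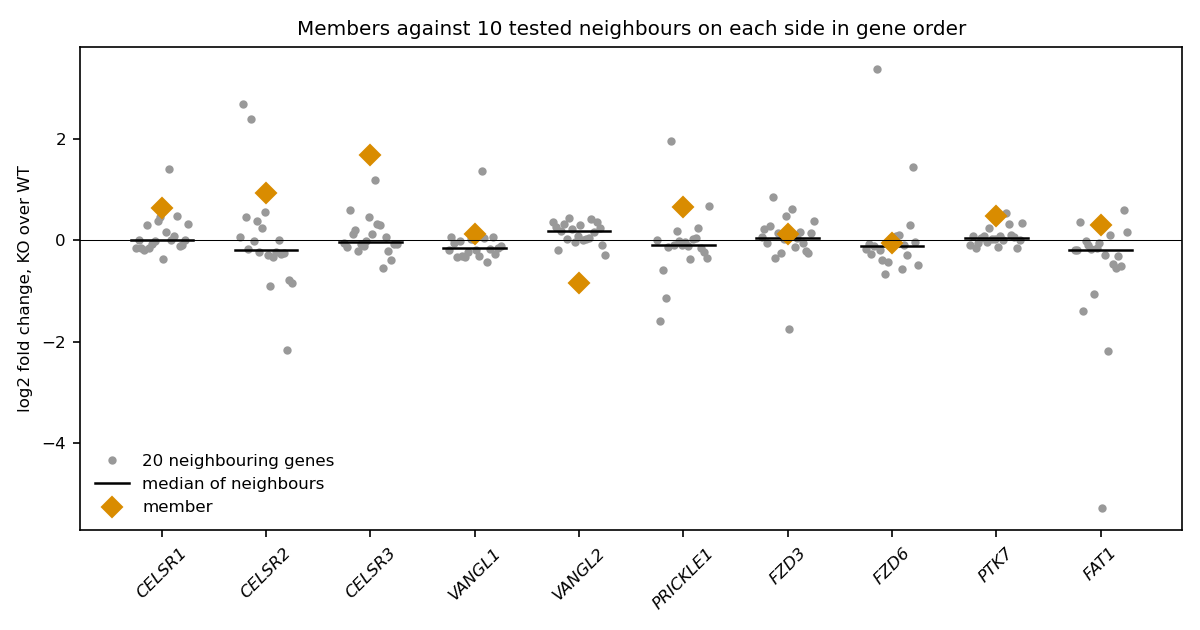
Log2 fold change, KO over WT (vertical axis), of each of the 10 genes (orange diamond) and of 10 tested neighbours on each side in gene order (grey points, median as a black line). CELSR3 lies above and VANGL2 below all 20 of its neighbours.

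Genes with the most similar pattern were sought for CELSR3, CELSR2 and VANGL2, the 3 called members with the largest log2 fold changes in size. Similarity was the Euclidean distance between log2 values over the 6 libraries, each gene centred on its own mean, among 8767 or 8768 tested genes with a symbol and a mean of at least 100. Nearest to CELSR3 were SRPK3, a splicing factor kinase (distance 0.203), the netrin receptor UNC5A (0.276) and SMAD9 (0.295). SRPK3 had 216, 190 and 191 normalized counts in KO, against 52.4, 57.6 and 62.7 in WT. Nearest to CELSR2 were CHD6, a chromatin remodeller (0.119), DNTTIP1 (0.177) and SNAI1, the snail repressor (0.179), and all 3 lie in the run from SMOX to UBE2V1. CHD6 had 572, 513 and 669 normalized counts in KO, against 320, 326 and 316 in WT, with the order of the KO libraries that CELSR2 had. Nearest to VANGL2 were PALM, which encodes the membrane protein paralemmin (0.147), TPGS1 (0.181) and PPP1R9A (0.201), of which none lies in that run.

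Of 61 other genes of the pathway, 41 were in the table and 39 were tested, and 8 were called higher and 11 lower, with a median log2 fold change of -0.04. With equal totals, 11 were called higher and 10 lower. Over all tested genes 48.1% were called, 23.6% higher and 24.5% lower, and the counts of the lists that follow stand beside those shares. Among core genes besides the 10, 1 of 5 tested rose and 2 fell. The Dishevelled genes encode the cytoplasmic partners of Frizzled, and 2 of the 3 fell. DVL3 had 2042, 2187 and 2262 normalized counts in KO, against 2722, 2579 and 2698 in WT (log2 fold change -0.30, adjusted p = 0.000288). DVL1 averaged 1234 ± 28.7 in KO and 1493 ± 66.3 in WT (log2 fold change -0.27, adjusted p = 0.000900). DVL2 averaged 658 ± 30.0 in KO and 573 ± 36.2 in WT and was called higher (adjusted p = 0.0322), a call lost without trend and robust options (adjusted p = 0.0547), without KO replicate 1 (0.125) or KO replicate 2 (0.0670), and without WT replicate 2 (0.0864) or WT replicate 3 (0.0555). The log2 ratio of DVL1 to DVL2 averaged 0.91 ± 0.05 in KO and 1.38 ± 0.03 in WT, without overlap (two-sided exact permutation p = 0.10, adjusted p = 0.12 over 5 ratios). The scaffold SCRIB and PRICKLE3 did not pass. PRICKLE2 was under the filter on low values, at 14.7, 11.2 and 6.84 in KO and 4.76, 1.70 and 0 in WT.

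Among the other Frizzled receptors, 3 of 6 tested rose, 1 fell and 2 did not pass. FZD7, linked to tissue movements in the frog embryo, had 289, 304 and 334 normalized counts in KO, against 80.9, 89.3 and 99.6 in WT. It rose 3.43-fold (log2 fold change 1.77, SE 0.114, adjusted p = 2.65e-08), with a wide gap between the groups. FZD1 had 146, 168 and 198 normalized counts in KO, against 72.9, 85.9 and 84.2 in WT, a 2.11-fold rise (adjusted p = 2.74e-05). FZD9 was low, at 14.7, 17.1 and 24.9 in KO and 4.55, 10.6 and 6.01 in WT (adjusted p = 0.00829). FZD5 averaged 218 ± 22.6 in KO and 271 ± 7.21 in WT and was called lower (adjusted p = 0.0149), though not without KO replicate 2 (adjusted p = 0.0816).

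The ligands of the pathway were divided. WNT5A, the ligand most tied to planar polarity in vertebrates, had 0.982, 0.900 and 0.959 normalized counts in KO, against 63.8, 62.7 and 37.8 in WT. The KO values lie close to the step of 0.896 to 0.980 that stands for about 1 read in those libraries, so the size of the fall is poorly set. WNT5A was called lower in every alternative that tested it, and its fitted log2 fold change of -4.80 moved between -5.84, the value in the authors' deposited table, and -3.30 with a pseudocount of 5. WNT5B, a close relative, had 12.7, 9.96 and 14.2 normalized counts in KO, against 67.7, 54.7 and 78.5 in WT, and fell by 2.35 on the log2 scale (SE 0.232, adjusted p = 1.80e-06). WNT7A had 4281, 4210 and 4579 normalized counts in KO, against 3497, 3266 and 3493 in WT, and rose 1.27-fold (adjusted p = 5.05e-05). The Wnt co-receptor RYK rose, averaging 2363 ± 112 in KO and 2070 ± 21.2 in WT (adjusted p = 0.00640), while WNT7B, at 920 ± 30.3 in KO and 920 ± 80.5 in WT, and the glypican GPC4 did not pass. In the Fat and Dachsous group only FJX1, a kinase acting on these cadherins, was tested, at 357 ± 12.1 in KO and 323 ± 16.8 in WT (adjusted p = 0.165).

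**Figure D4:**
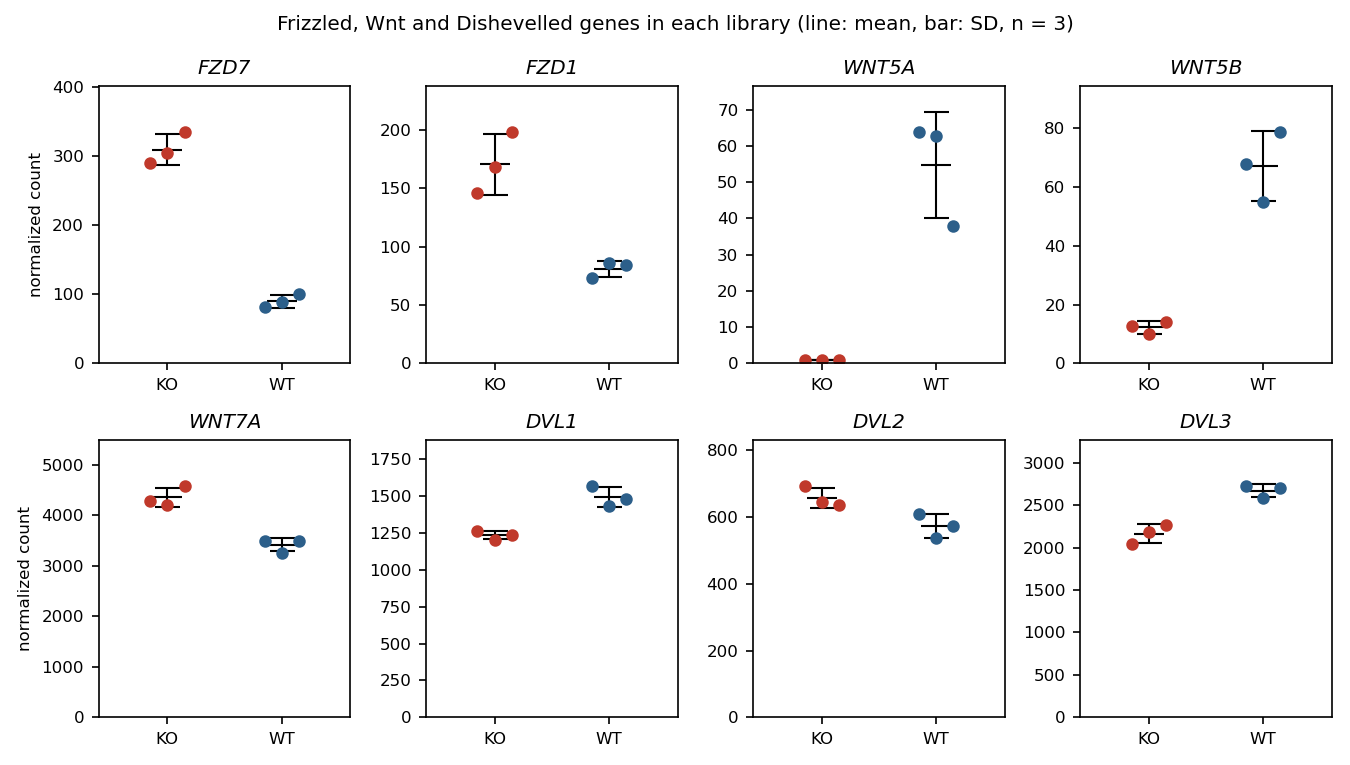
Normalized counts (vertical axes, from 0) of 2 Frizzled, 3 Wnt and 3 Dishevelled genes in each KO library (red, left) and each WT library (blue, right), with mean and SD (n = 3). FZD7 and FZD1 are higher and WNT5A and WNT5B lower in every KO library, and the shifts of the Dishevelled genes are smaller.

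Of 14 tested downstream effectors, 3 fell, 1 rose and 10 did not pass, where 24.5% of all tested genes were called lower and 23.6% higher. DAAM1, a formin that links Dishevelled to RhoA, averaged 390 ± 9.93 in KO and 549 ± 20.5 in WT (log2 fold change -0.49, adjusted p = 6.04e-05). The GTPase gene RHOA averaged 13848 ± 49.1 in KO and 16783 ± 744 in WT (log2 fold change -0.28, adjusted p = 6.04e-05), and RAC1 9884 ± 162 in KO and 11577 ± 257 in WT (log2 fold change -0.23, adjusted p = 0.000212). NOS1AP, which binds Scribble and Vangl, rose 1.40-fold (adjusted p = 0.00150). The kinases ROCK1, ROCK2, MAPK8 and MAPK9 and the ciliogenesis effectors INTU, WDPCP, CPLANE1, CPLANE2 and INVS did not pass, nor did CDC42. Of 7 genes for traffic and turnover of core proteins, 3 fell and 1 rose. SEC24B, a coat protein that exports Vangl2 from the endoplasmic reticulum, averaged 808 ± 27.2 in KO and 1013 ± 73.9 in WT (log2 fold change -0.32, adjusted p = 0.00116), and the Vangl2-binding adaptor GIPC1 averaged 1567 ± 79.8 in KO and 2025 ± 85.6 in WT (log2 fold change -0.37, adjusted p = 9.31e-05). The ubiquitin ligases of the Smurf pair, which target Prickle in the mouse, split: SMURF2 rose 1.27-fold (adjusted p = 0.00360), and SMURF1 fell to 87.8% of its WT level in KO (adjusted p = 0.0122). The SMURF1 call was lost with equal totals (adjusted p = 0.0522) and without KO replicate 1 (0.0582) or KO replicate 2 (0.0599).

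**Figure D5:**
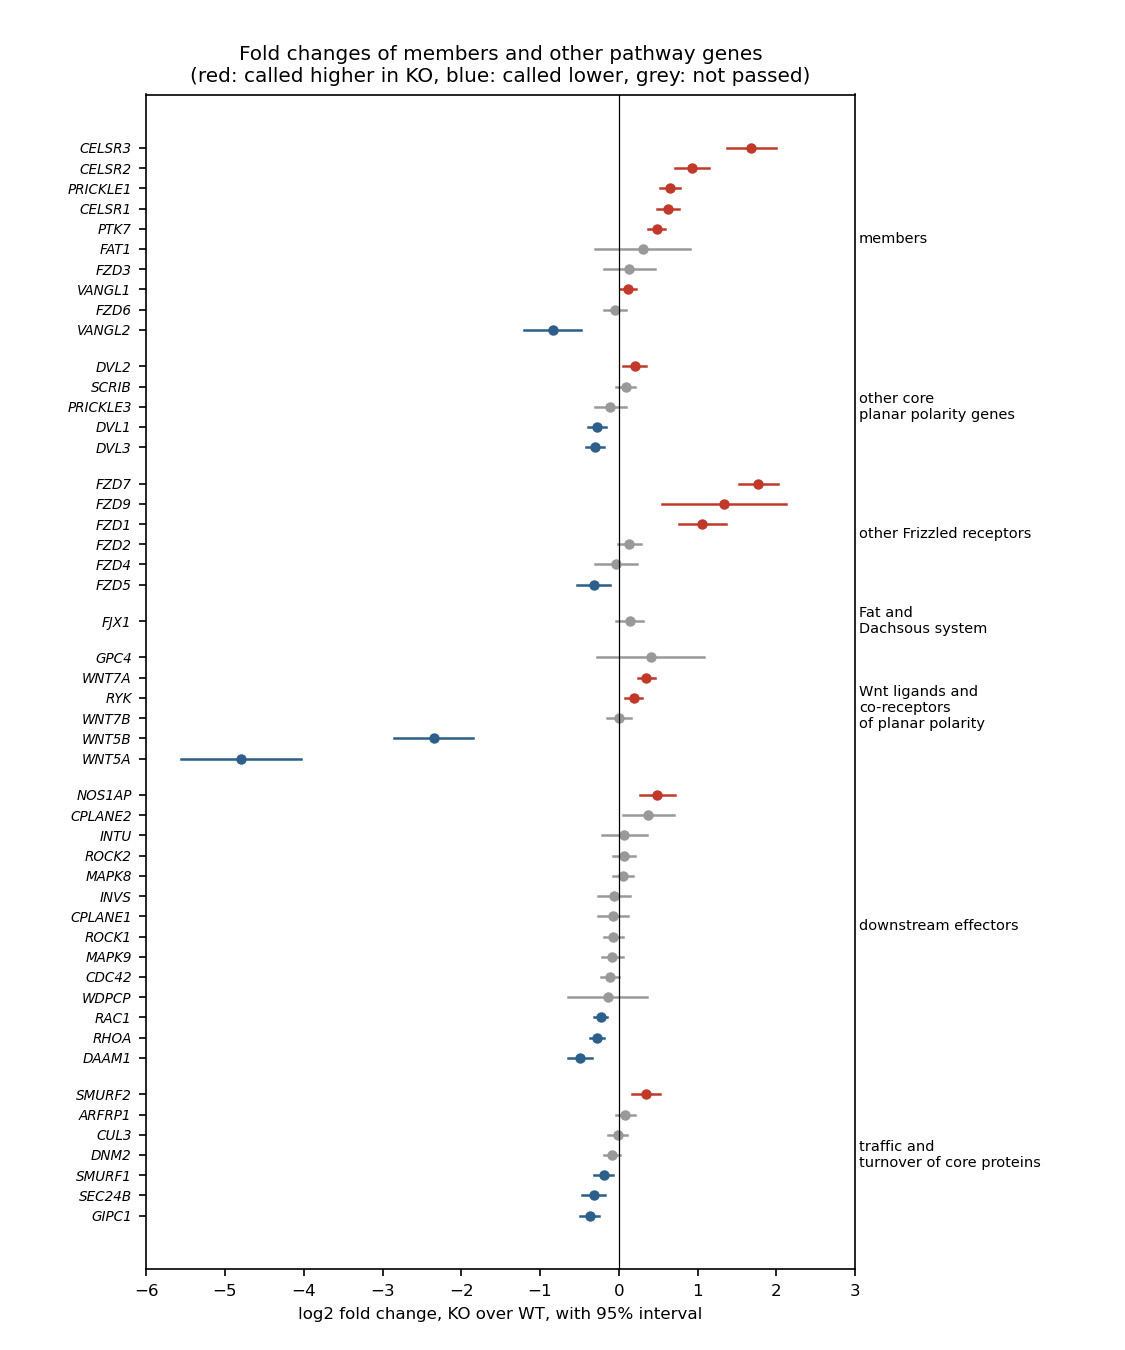
Log2 fold change, KO over WT (horizontal axis), with its unadjusted 95% interval for the 10 planar polarity genes (top group) and 39 other tested pathway genes, coloured by call after adjustment. CELSR3 (1.68) and FZD7 (1.77) lie farthest to the right and WNT5A (-4.80) and WNT5B (-2.35) farthest to the left.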

How the data were processed

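Per the labels' protocols, stranded poly-A libraries (dUTP method) were prepared from 250 ng of RNA and sequenced in paired reads of 75 bases. STAR 2.5.2b, Picard 2.8.1, FastQC, featureCounts and DESeq2 1.14.1 are named in the submitters' processing notes, with the genome build not given in the sources used here, so no coordinates are printed. The authors deposited a normalized count per gene and library, a signal in which low values (under 12) fell near whole multiples of 1 step per library, within 0.1, in 72.2 to 81.0% of cases. Whole reads were therefore not recovered and no count test was run; dividing totals by the step gives about 16884423 to 22451414 reads. The authors also deposited, per the file headers, their mean, log2 fold change, its error, a score and raw and adjusted p-values.

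Genes whose 6-library mean reached 10 were fitted as log2(value + 1) on group with limma 3.58.1 (trend and robust options, statmod 1.5.0, R 4.3.3), two-sided, with Benjamini-Hochberg adjustment. Fold changes on this scale understate those of low genes. Ratios used exact permutation tests (scipy 1.17.1, Python 3.11.15). Gene order came from the RefSeq table of UU_Cfam_GSD_1.0, in which 9788 of 10003 tested symbols had a place; it was used for order only. The genes, lists and rules were chosen with earlier results of these data known. Named are CDH1, the 10 members, called genes of the pathway lists (values for at most 4 a list, by adjusted p) and the 3 genes most alike to each of 3 members; others named with values were chosen after they were seen. For repeated symbols the highest-mean row was taken. Alternatives were other pseudocounts (0.5 and 5), filters (no minimum and a mean of at least 50) and library scalings, limma without trend and robust options, a replicate block, the authors' calls and leaving out each library.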

Additional observations from a re-analysis of the deposited data

Results flagged for a closer look

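The deposited mean of normalized counts was not used in the comparison. It was looked at for the 10 planar polarity genes and the 41 other pathway genes in the table. For 8 genes in all, it was higher than the gene's value in each of the 6 libraries. VANGL2 was the only planar polarity member among these 8. Across the table, the mean of the 6 libraries was at most 1.5 times the deposited mean, the limit for an average taken over 9 libraries; any others are not analysed here. For VANGL2 the authors' deposited table gives a mean of 104, against a highest library value of 52.9 in KO and 95.9 in WT. For WNT5A the deposited mean was 155, against highest values of 0.982 in KO and 63.8 in WT, and for PRICKLE2 it was 32.4, against 14.7 in KO and 4.76 in WT. The deposited mean was 984 for FZD2 and 397 for INVS. It was 2543 for ROCK2, 1282 for MAPK9 and 1876 for ARFRP1.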

How the results depend on the processing

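Under 15 alternatives, the count of planar polarity genes called higher was 5 or 6 and the count called lower was 1 in each. Counts for the other pathway genes (39 tested, or 41 with no filter on low values) ran from 7 to 11 higher and from 9 to 13 lower. A minimum mean of 50 left fewer to test, without FZD9, WNT5A and WNT5B among others, and gave 7 higher and 9 lower. Over all tested genes, 2500 to 3571 were called higher and 2374 to 3118 lower, the most uneven split coming with equal totals (3571 and 2374), which moved the median log2 fold change of all genes to 0.046, against -0.011 as deposited. CELSR1, CELSR2, CELSR3, VANGL2, PRICKLE1 and PTK7 kept their call and direction in all 15. FZD6 reversed to 0.01 with equal totals and to 0.02 without WT replicate 2, and ran from -0.11 to 0.02 over the leave-one-out fits; the cause was not tested. Leaving out 1 library gave log2 fold changes of 0.55 to 0.68 for CELSR1, 0.83 to 1.03 for CELSR2, 1.56 to 1.76 for CELSR3, -0.92 to -0.72 for VANGL2 and 0.10 to 0.49 for FAT1. The 5 ratios kept their sign in the 8 alternatives run for each. The ratio of FAT4 to FAT1, also planned, was not computed, since the symbol FAT4 was not in the table. Replicate numbers are shared between KO and WT, but same-numbered libraries did not deviate together (correlations of 0.054, -0.026 and -0.040). With the replicate block, 5 planar polarity genes were called higher and 1 lower, VANGL1 missing the threshold (adjusted p = 0.0502), and 3000 of all tested genes were called higher and 3118 lower. Low genes such as VANGL2, FZD9 and WNT5A rest on few reads, as does CELSR3 in WT (44.6 to 58.9 normalized counts).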

Other observations

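The symbol RAC1 stood on 3 rows of the table. Besides the row described above, ENSCAFG00845000495 had 472 ± 6.20 normalized counts in KO and 502 ± 20.2 in WT (adjusted p = 0.316). ENSCAFG00845023381 had 0, 3.59 and 1.91 in KO, against 556, 532 and 573 in WT. Whether reads are shared between these rows was not tested.

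Beside FAT1 in gene order lies CYP4V2, a cytochrome P450 gene singled out after its values were seen. It had 0.982, 1.80 and 0.959 normalized counts in KO, against 83.1, 95.5 and 78.2 in WT (log2 fold change -5.28, adjusted p = 8.40e-09), while FAT1 itself did not pass. FBXO16, likewise the nearest tested gene on 1 side of FZD3, was also singled out after its values were seen. It stood at 0.962, 7.93 and 7.65 in KO and 14.8, 27.4 and 11.9 in WT (adjusted p = 0.0229).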
